A study of Mus musculus with 3 samples.

Results

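Expression of 8 genes of the Kruppel-like factor family, Klf2, Klf3, Klf4, Klf6, Klf7, Klf9, Klf10 and Klf13, was followed as mouse macrophages were turned into osteoclasts. The 8 genes were taken by name, with every probe set whose annotation carries that 1 gene symbol, which gave 24 probe sets of the 20380 single-symbol probe sets and 8 genes of the 12393 on the array. Bone marrow cells of C57/BL6 mice had first been turned into macrophages with hM-CSF (human M-CSF, 50 ng/ml, 3 days). They then received hRANKL (human RANKL, 150 ng/ml), the cytokine that drives osteoclast formation, for 0 h (labelled precursor), 24 h (differentiating precursor) or 72 h (osteoclast). Each time had 1 Affymetrix array, so nothing below has a replicate check, no test could be run and no p-value is given. All 3 cultures shared the M-CSF step; a culture kept for 24 or 72 h without RANKL was not analysed here, so RANKL and time in culture cannot be told apart. The number and age of the animals, and any pooling of their cells, are not given in the sources used here.

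Kruppel-like factors are transcription factors that end in 3 zinc fingers and bind GC-rich and CACCC-type sequences in promoters. They are commonly sorted by what their other end binds: Klf2, Klf4, Klf6 and Klf7 mostly act as activators, Klf3 recruits the CtBP corepressors, and Klf9, Klf10 and Klf13 recruit the Sin3a corepressor. In the myeloid lineage Klf4 is known for its part in monocyte differentiation and Klf2 for restraining monocyte and macrophage activation, and several members are rapid response genes whose mRNA turns over quickly.

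Probe set signals were put on a common scale by subtracting, per array, the median log2 signal of its gene probe sets, since the deposited medians were 36.7, 60.9 and 62.7 at 0, 24 and 72 h. A floor of 29.6 scaled signal units marks values too dim to order. A gene is represented by its brightest probe set, and is called higher or lower at a 2-fold difference. The technical error, the SD between probe sets of a same gene divided by the square root of 2, was 0.41 log2 units when 24 h was set against 0 h. It was 0.49 at 72 h, again with 0 h as the base, and 0.36 between the 2 RANKL times. It leaves out the spread between cultures and readings at the floor. The labels were checked against markers. All 10 macrophage markers were above the floor on all 3 arrays, and 7 of them were lower at both RANKL times (medians -1.95 and -2.10). Cd68 was instead 2.34-fold higher at 72 h, and Csf1r and Lyz2 stayed within 2-fold at both times. Among all measured genes 9.22% were lower at 24 h, and at 72 h 12.8% were lower and 12.5% higher. Of 8 osteoclast markers with a probe set, 5 were above the floor at 0 h and 8 at 72 h. All 8 were higher at 72 h, among them Ctsk, the collagen-degrading cathepsin, which went from a scaled signal of 174.7 to 8856.

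After 24 h of RANKL, 2 of the 8 Kruppel-like factors, Klf2 and Klf6, were at least 2-fold lower and 0 were higher. The background was 9.22% of measured genes lower and 13.2% higher. At 72 h against 0 h, 3 of 8 were lower (Klf2, Klf7 and Klf13) and 0 higher, against a background of 12.8% lower and 12.5% higher. The members' median log2 difference was -0.41 at 24 h and -0.76 at 72 h, beside 0.12 and -0.01 over all measured genes. Between 24 and 72 h none of the 8 moved by 2-fold (0 lower and 0 higher, background 10.0% and 6.92%), with a median of -0.49 beside -0.14. The deposited scale lies 0.73 and 0.77 log2 units higher at 24 and 72 h. On it 1 member was lower (Klf2) and 1 higher at each time. The members' medians on that scale were 0.32 and 0.01, beside 0.78 and 0.68 over all measured genes. Shares of all genes called on the deposited scale are not given here. Counted by probe set, 20 of the 24 were measured at 24 h, with 7 lower and 0 higher (background 8.66% and 13.5%). Of the 19 measured at 72 h against 0 h, 6 were lower and 1 higher (background 11.5% and 14.1%). Between the RANKL times 1 of 20 was higher, a Klf9 probe set, and 0 were lower (background 7.78% and 9.05%).

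**Figure D1:**
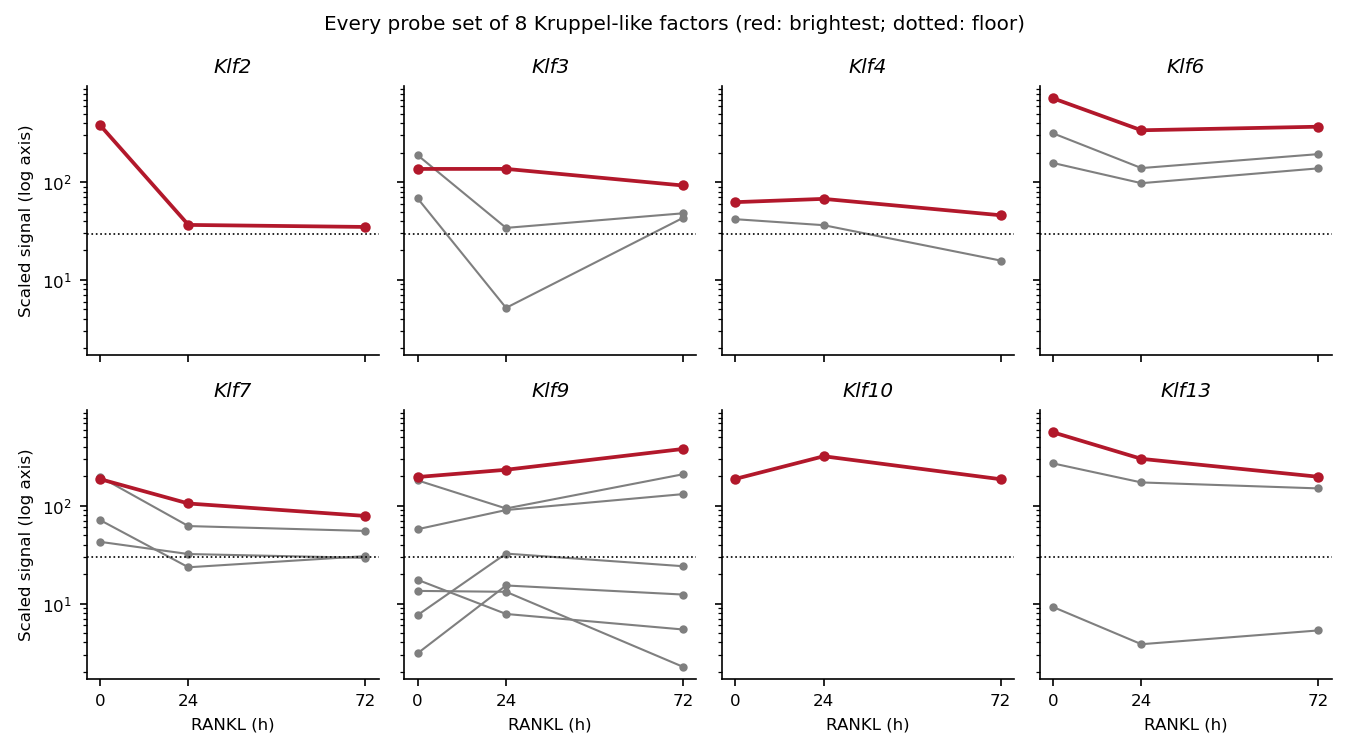
Scaled signal (log axis) of all 24 probe sets of the 8 genes against hours of RANKL, with 1 array per time; the red line is the probe set that represents the gene, grey lines are its other probe sets and the dotted line is the floor of 29.6. Klf2 dropped from 384.2 to 36.5 by 24 h, just above the floor, while the Klf3 probe sets separated and 4 of the 7 Klf9 probe sets lay at or below the floor on most arrays.

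Among the members described as activators, Klf2, the factor that holds endothelial cells, T cells and monocytes in a quiet state, changed most. Its single probe set (1448890_at) had scaled signals of 384.2, 36.5 and 34.8 at 0, 24 and 72 h. The 0 h culture was thus high and both RANKL cultures were low and close to each other. Klf2 fell 10.5-fold by 24 h (log2 -3.40) and 11.0-fold by 72 h (log2 -3.47), and 98.0% of the 72 h log2 difference was present at 24 h. Only 21 of 8439 measured genes had a 24 h difference at or below that of Klf2, and 50 of 8558 a 72 h difference. With the floor at the 60th percentile both RANKL values fell under it, and the log2 difference became a bound of -2.06 at each time. Since these are bulk cultures, fewer cells carrying Klf2 and less Klf2 RNA per cell cannot be told apart.

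Klf6, a widely expressed early response factor with tumour suppressor activity, went from 721.2 at 0 h to 339.2 at 24 h and 368.9 at 72 h. It was 2.13-fold lower at 24 h (log2 -1.09) and a factor of 1.96 lower at 72 h (log2 -0.97), just short of 2-fold. All 3 of its probe sets were below 0 in both comparisons, with a mean log2 difference of -0.99 ± 0.26 (SD, n = 3 probe sets, which share the same RNA) at 24 h and -0.62 ± 0.40 at 72 h. The 24 h call lay within the technical error of the 2-fold line, and averaging the probe sets ended it. From 24 to 72 h its 3 probe sets were all slightly above 0, with a mean of 0.37 ± 0.21.

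Klf7, known mainly from neurons and adipocytes, had scaled signals of 187.7, 105.6 and 78.7 at 0, 24 and 72 h. The value was highest at 0 h and lowest at 72 h. The log2 difference was -0.83 at 24 h, short of 2-fold (past it with trimmed mean scaling or averaged probe sets), and -1.25 at 72 h, a 2.38-fold decrease. Another probe set (1449439_at) started at a similar 198.1 and was lower after RANKL, at 62.0 and 55.3, with log2 differences of -1.67 and -1.84. All 4 Klf7 probe sets were below 0 at both times, with means of -1.05 ± 0.55 and -1.21 ± 0.53 (SD, n = 4 probe sets, with some values at the floor).

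Klf4, the monocyte differentiation and reprogramming factor, stayed within 2-fold. Its brighter probe set read 62.4, 67.4 and 45.8, and the dimmer one read 41.8, 36.3 and 15.8, the last under the floor. The log2 differences of the brighter one were 0.11 at 24 h and -0.44 at 72 h, the first well within the technical error and both smaller than it at their time. With the floor at the 60th percentile Klf4 was not measured at all, so these signals leave little room to show a decrease.

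Klf3, the CtBP-recruiting repressor, gave different answers by probe set. The one that represents it (1431630_a_at) read 136.4, 136.6 and 92.3, a log2 difference of 0.00 at 24 h and -0.56 at 72 h. The second (1429360_at) read 188.8, 34.0 and 48.0, which is 5.55-fold lower at 24 h and 3.94-fold lower at 72 h. The remaining one (1421604_a_at) went from 68.3 to 5.17, under the floor, and back to 43.1, so it was at least 2.31-fold lower at 24 h and within 2-fold at 72 h. Thus 2 of 3 probe sets were lower at 24 h while the brightest was level, with a mean of -1.23 ± 1.24 (SD, n = 3 probe sets). Leaving out probe sets ending in _a_at, _s_at or _x_at makes Klf3 a lower gene at both times, with log2 differences of -2.47 and -1.98. Which transcript form each of them reads was not tested. Split calls were common: of 424 genes with several measured probe sets and at least 1 lower at 24 h, 68.2% also had a probe set that was not lower. That share counts any pair on either side of the 2-fold line, however close. It does not say how often probe sets lie as far apart as those of Klf3.

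Of the Sin3a-binding group, Klf13, which in T cells drives the chemokine gene Ccl5, was lower. Its scaled signals were 565.3 at 0 h, 302.3 at 24 h and 198.2 at 72 h. They stepped down at each time, with 59.7% of the 72 h log2 difference present at 24 h. The log2 difference was -0.90 at 24 h, past 2-fold after quantile or trimmed mean scaling, and -1.51 at 72 h, a 2.85-fold decrease, and 568 of 8558 measured genes had a 72 h difference at or below it. A second probe set read 271.7, 173.4 and 150.7 and stayed within 2-fold (log2 -0.65 and -0.85). Its last probe set was under the floor on all arrays.

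Klf9, a factor induced by glucocorticoid and thyroid hormones, was the member with the highest 72 h difference. Its brightest probe set (1428288_at) read 197.0, 233.7 and 381.6, highest at 72 h. The log2 difference was 0.25 at 24 h and 0.95 at 72 h, a factor of 1.94 and just short of 2-fold. A dimmer probe set (1428289_at) had the same order, 57.6, 90.5 and 131.7, and passed at 72 h with a 2.29-fold increase (log2 1.19). A further one (1456341_a_at) dipped instead, from 182.1 to 93.9 and back to 210.3. The mean over the 3 probe sets measured at 72 h was 0.78 ± 0.51 (SD), and with all 7 averaged, dim ones included, the difference was 0.14. On the deposited scale it was 1.73 and Klf9 counted as higher.

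Klf10, the TGF-beta inducible early gene, peaked at 24 h. Its single probe set (1416029_at) read 188.3, 321.4 and 187.0, so the 0 h and 72 h values were level and the 24 h value stood above both. The log2 difference of 0.77 at 24 h, a factor of 1.71, was larger than the technical error but within 2-fold, and -0.78 from 24 to 72 h brought it back. On the deposited scale its 24 h difference was 1.50 and it counted as higher.

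**Figure D2:**
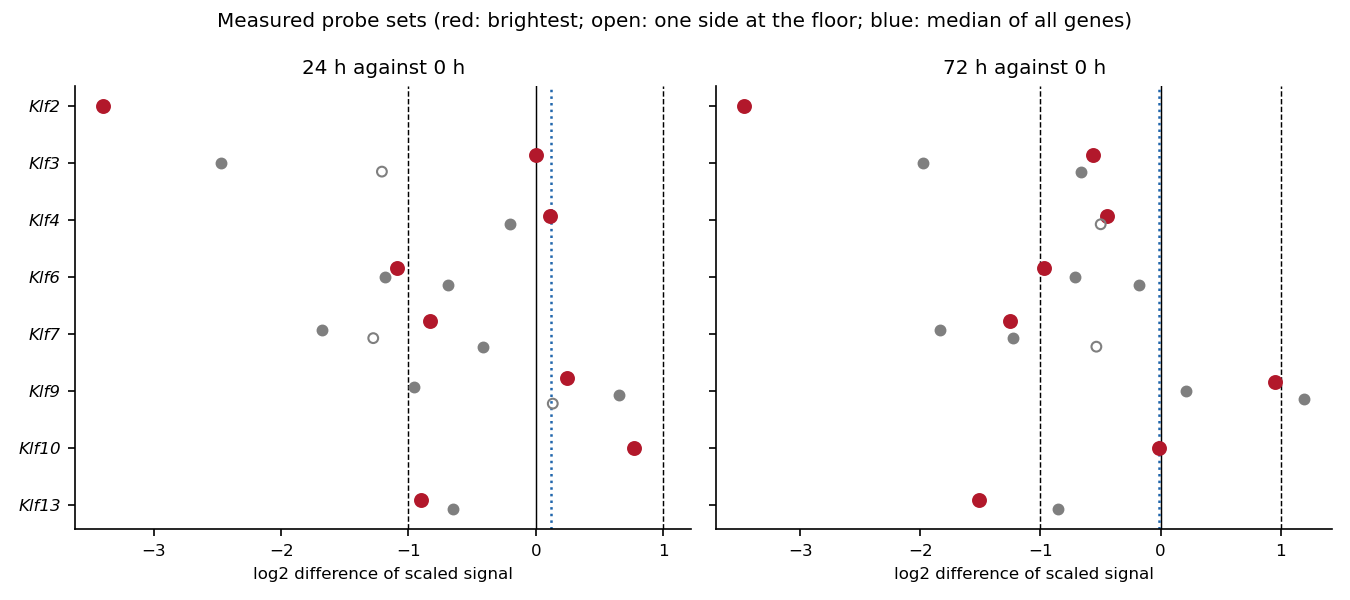
Log2 difference of scaled signal for each measured probe set at 24 h (left) and 72 h (right) against 0 h, with 1 array per time; red marks the representing probe set, open circles have 1 side at the floor, dashed lines mark 2-fold and the blue dotted line is the median of all measured genes. The Klf6 and Klf7 probe sets all lie below 0 in both panels, those of Klf3 spread from -2.47 to 0.00 at 24 h, and Klf9 has 1 probe set past 2-fold higher at 72 h.

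Ordered by log2 difference, the 8 genes at 24 h ran from Klf2 (-3.40) through Klf6 (-1.09), Klf13 (-0.90), Klf7 (-0.83), Klf3 (0.00), Klf4 (0.11) and Klf9 (0.25) to Klf10 (0.77). Klf6, Klf13 and Klf7 lay within the technical error of each other, as did Klf3, Klf4 and Klf9. At 72 h they ran from Klf2 (-3.47) through Klf13 (-1.51), Klf7 (-1.25), Klf6 (-0.97), Klf3 (-0.56), Klf4 (-0.44) and Klf10 (-0.01) to Klf9 (0.95), and neighbours from Klf13 to Klf10 were each within the error of the next. Both orders share the 0 h array.

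Promoter sequence was read for the 3 genes that were lower at 72 h, to show which short motifs they hold. Below are the 250 bases before the RefSeq gene start (GRCm38.p6), 5′ to 3′ on the gene's strand. Capitals mark every CACCC, the family's own recognition motif, on either strand (read as GGGTG on the other), and the match to the MEF2 consensus, which overlaps none of them. MEF2 factors, switched on by the kinase ERK5, are known inducers of Klf2. The Klf2 stretch is chr8:72318812-72319061 (plus strand), that of Klf7 chr1:64121390-64121639 (minus strand) and that of Klf13 chr7:63938916-63939165 (minus strand).
Klf2: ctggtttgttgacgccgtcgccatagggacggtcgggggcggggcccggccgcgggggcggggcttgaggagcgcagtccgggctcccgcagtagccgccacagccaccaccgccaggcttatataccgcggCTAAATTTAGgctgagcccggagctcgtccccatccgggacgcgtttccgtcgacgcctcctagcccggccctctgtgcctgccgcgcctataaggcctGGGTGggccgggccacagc
Klf7: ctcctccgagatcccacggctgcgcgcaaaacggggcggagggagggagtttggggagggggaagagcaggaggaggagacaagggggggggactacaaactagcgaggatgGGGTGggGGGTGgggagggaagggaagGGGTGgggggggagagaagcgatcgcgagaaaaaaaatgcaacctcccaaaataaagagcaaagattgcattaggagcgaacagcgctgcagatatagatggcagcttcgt
Klf13: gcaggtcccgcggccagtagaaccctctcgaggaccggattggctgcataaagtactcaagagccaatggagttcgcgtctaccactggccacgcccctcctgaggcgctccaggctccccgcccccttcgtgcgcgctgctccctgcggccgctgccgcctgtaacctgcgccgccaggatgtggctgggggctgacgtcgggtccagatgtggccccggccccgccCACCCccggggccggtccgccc

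Klf2 holds 1 MEF2 match, beginning 118 bases before the gene start, and 1 CACCC, 19 bases before it. Klf7 holds 3 CACCC matches, of which the farthest begins 138 bases before the start, and Klf13 holds 1, 22 bases before it. Of 7 members with a promoter in the table (Klf10 is named only), Klf2 was the 1 with a MEF2 match, which 2.92% of 32851 promoters of this length held. CACCC was in 5 of the 7 and in 52.0% of promoters. The GC box GGGCGG, searched on both strands, was in 6 of the 7, all but Klf9, and in 32.7% of promoters. Klf9 was the 1 member with an AP-1 motif, TGANTCA on either strand (6.75% of promoters), and no member held a CArG box (1.47%). A match is a description of letters and says nothing about binding in these cells.

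Among genes that signal to the family, the MEF2 factor Mef2c fell and the TGF-beta receptor gene Tgfbr1 rose. Of 15 genes of this list, 0 were higher and 3 lower at 24 h, and 2 higher and 4 lower at 72 h. Over all genes 13.2% were higher and 9.22% lower at 24 h, and 12.5% and 12.8% at 72 h. On the deposited scale the list had 4 higher and 1 lower at 24 h, and 3 higher and 1 lower at 72 h. The list's median was -0.66 and -0.37, beside 0.12 and -0.01 over all genes. As deposited it was 0.07 and 0.40, beside 0.78 and 0.68 over all genes. Mef2c read 326.0, 59.4 and 24.6, which is 5.49-fold lower at 24 h and at least 11.0-fold lower at 72 h. All 5 Mef2c probe sets were at least 2-fold lower at both times. Mapk7, which encodes ERK5, Mef2a, Mef2d and Tgfbr2 were picked out after their values were seen. Mapk7 read 113.4, 44.8 and 41.0, a 2.53-fold and a 2.76-fold decrease that ended on the deposited scale or with the higher floor. Mef2a read 1260, 741.4 and 513.0, and was 2.46-fold lower at 72 h by this probe set, while 2 of its 4 measured probe sets stayed within 2-fold and the deposited scale or averaged probe sets ended the call. Mef2d stayed within 2-fold at 410.6, 293.8 and 425.9, while its dimmer probe set was 2.31-fold higher at 24 h. By contrast Map2k5, the kinase upstream of ERK5, read 113.6, 195.7 and 375.6, a 3.31-fold increase at 72 h by its brightest probe set. All 3 Map2k5 probe sets were past 2-fold at 72 h.

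Tgfbr1, a receptor chain for TGF-beta, the inducer of Klf10, read 717.6, 1206 and 3194. It was 4.45-fold higher at 72 h and within 2-fold at 24 h by this probe set, while 1 of its 2 dimmer ones was already higher at 24 h. Tgfbr2, the other chain of that receptor, read 1507, 693.0 and 2255 by its brightest probe set. That was a dip of 2.18-fold at 24 h and a value within 2-fold of the start at 72 h. The 24 h call ended on the deposited scale or with averaged probe sets. A dimmer Tgfbr2 probe set (1425444_a_at) read 48.1, 31.6 and 321.3, within 2-fold at 24 h and 6.68-fold higher at 72 h. Nr3c1, the glucocorticoid receptor that induces Klf9, read 547.3, 337.9 and 194.8, a 2.81-fold decrease at 72 h. Another Nr3c1 probe set, dim at 0 h, was above its start at 72 h, and the deposited scale or averaged probe sets ended the call.

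The ubiquitin ligase Wwp1, reported to mark Klf2 protein for degradation, had scaled signals of 1279, 148.2 and 132.4. It was high at 0 h and low at both later times, 8.63-fold and 9.67-fold lower, and its other 2 probe sets were also lower at both times. It was the 1 called gene of the 6 ligases with a probe set, with list medians of 0.16 and 0.08. The share of all genes that were lower was 9.22% at 24 h and 12.8% at 72 h. As deposited, the medians were 0.89 and 0.75, beside 0.78 and 0.68 over all genes. On that scale 2 ligases were higher at 24 h and 1 at 72 h. Of 10 measured cofactors, Sin3b, a Sin3 family corepressor, was the 1 called at 24 h, 2.36-fold higher (737.7 to 1741), and it stood at 2081 at 72 h, 2.82-fold higher. For all genes the share higher was 13.2% at 24 h and 12.5% at 72 h, so 1 of 10 lies near it. As deposited, 7 of the 10 were higher at 24 h and 5 at 72 h. Their medians were then 1.33 and 0.89 in place of 0.60 and 0.12, beside 0.78 and 0.68 over all genes. Without multi-transcript probe sets the Sin3b 24 h difference was 0.33 and not called. Crebbp, the acetyltransferase CBP, read 147.9, 157.4 and 46.2 and was 3.20-fold lower at 72 h, a call that ended on the deposited scale or with the higher floor. The corepressor Ctbp1, partner of Klf3, stayed within 2-fold at 1366, 1218 and 775.0.

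Of 12 other Klf and Sp genes with a probe set, 6 were measured at 24 h and 7 at 72 h, with 0 higher and 0 lower against 0 h. Among all genes 13.2% and 12.5% were higher at these times, and 9.22% and 12.8% lower. Without centring, 2 were higher at 24 h and 1 at 72 h. Klf12, Klf15, Sp4, Sp5 and Sp6 were under the floor on all 3 arrays. Klf16 read 45.8, 74.8 and 31.9 and was the 1 gene of this list called between 24 and 72 h, 2.35-fold lower (background 10.0%). Sp1, the founding member of the related Sp factors, read 615.5, 553.4 and 320.3, a log2 difference of -0.94 at 72 h that passed 2-fold after quantile normalization or trimmed mean scaling. Sp3, a relative of Sp1, read 55.2, 105.8 and 94.9, a log2 difference of 0.94 at 24 h that passed 2-fold when arrays were scaled to the hybridization controls or left as deposited.

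Genes reported elsewhere as targets of the family moved both ways. Of 12 measured, 2 were higher and 4 lower at 24 h, and 2 higher and 3 lower at 72 h, with medians of -0.47 and -0.64 (0.24 and 0.10 on the deposited scale). The shares over all genes are those given above, and the counts of higher targets lie near them. Without centring, 3 were higher and 2 lower at 24 h, and 2 higher and 1 lower at 72 h. S1pr1 and Thbd, known for their induction by Klf2 in T cells and endothelium, were picked out after their values were seen. S1pr1, a sphingosine phosphate receptor, read 159.8, 45.5 and 84.0. It was 3.51-fold lower at 24 h, a call that ended with the higher floor, and within 2-fold at 72 h. Thbd, the anticoagulant receptor thrombomodulin, read 83.1, 34.3 and 51.8, 2.43-fold lower at 24 h but not on the deposited scale, and within 2-fold at 72 h. With the higher floor Thbd was not measured. Arg1, an arginase linked to Klf4, read 1032, 493.2 and 50.8 and was 20.3-fold lower at 72 h. Cd14, the endotoxin co-receptor, read 1544, 436.6 and 600.3, 3.54-fold lower at 24 h and 2.57-fold at 72 h, the latter not on the deposited scale. Smad7, the TGF-beta pathway inhibitor that Klf10 represses, read 48.8, 205.9 and 142.4, and was 4.22-fold and 2.92-fold higher, the 72 h call ending with the higher floor. Itgb7, an integrin chain used in lymphocyte homing, read 62.7, 131.2 and 227.8, 2.09-fold and 3.63-fold higher. Its 24 h call ended after quantile normalization, trimmed mean scaling or the higher floor.

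Several Kruppel-like factors are rapid response genes, and that class as a whole was compared beside them. Of 16 measured immediate early genes, 0 were higher at both times, 7 were lower at 24 h and 6 at 72 h, with medians of -0.44 and -0.68 (0.23 and 0.05 on the deposited scale). The 0 depends on the scale: on the deposited one 4 were higher at 24 h and 3 at 72 h, with the same numbers lower. Over all genes 9.22% and 12.8% were lower. Ier3 read 1522, 149.0 and 297.4, 10.2-fold and 5.12-fold lower. Egr1, a zinc finger factor of the same class, read 941.8, 112.4 and 151.9, 8.38-fold and 6.20-fold lower. Atf3 dropped from 289.6 to 23.3, under the floor and at least 9.80-fold lower, and then read 31.4. The antiproliferative Btg2 was 7.46-fold lower at 72 h. These 4 were the largest differences of the list. The AP-1 subunit genes Fos, Junb and Jun, named after their values were seen, had other courses and stayed within 2-fold of 0 h on the centred scale. Fos read 3198, 4055 and 1987, Junb read 499.3, 905.8 and 311.1, and Jun read 294.7, 409.5 and 571.2.

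**Figure D3:**
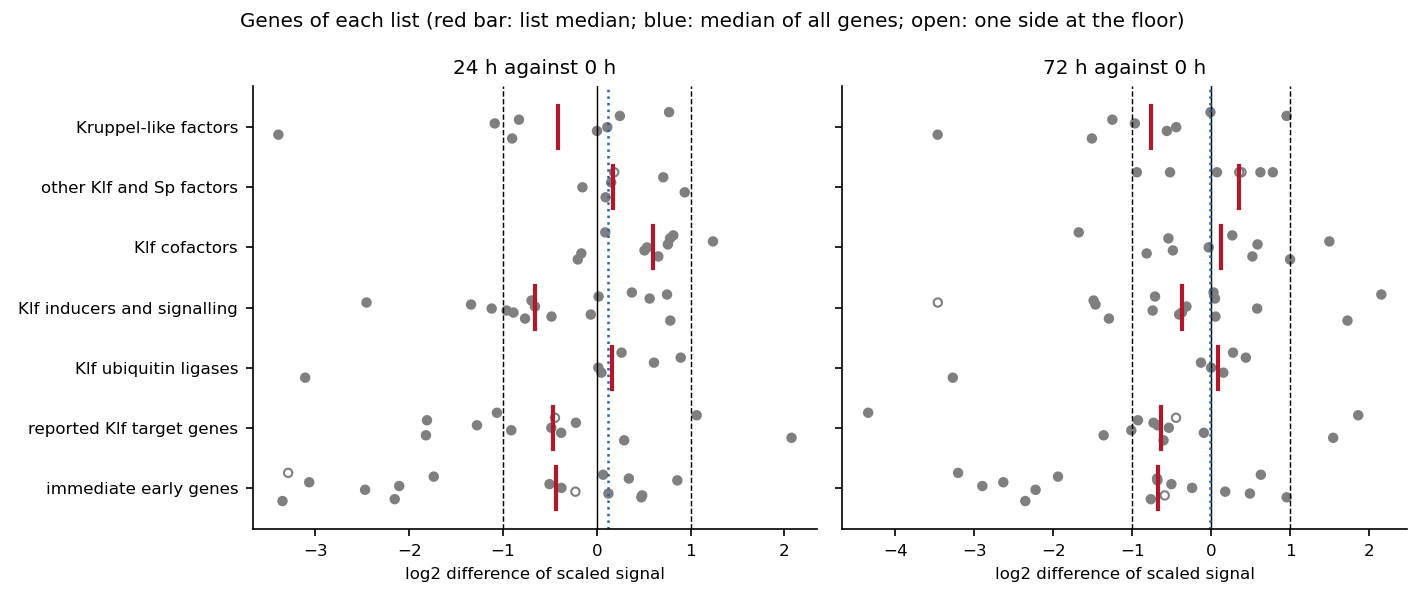
Log2 difference against 0 h for every measured gene of 7 lists at 24 h (left) and 72 h (right), with 1 array per time; each circle is a gene by its brightest probe set, open where 1 side is at the floor, red bars are list medians, dashed lines mark 2-fold and the blue dotted line is the median of all measured genes. The Kruppel-like factor medians are -0.41 and -0.76, and the other Klf and Sp genes lie between the 2-fold lines in both panels.

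Markers of other marrow cells also moved over the course. Of 6 endothelial markers, a cell type known for Klf2, Pecam1, Cdh5, Tek and Tie1 were under the floor on all arrays; the list's summed scaled signal was 447, 136 and 121. Vwf, which platelets also carry, read 331.7, 58.0 and 50.8 of it. Kdr, the other endothelial marker above the floor, read 46.2, 34.6 and 45.7 and stayed within 2-fold. All 5 megakaryocyte and platelet markers with a probe set were lower at both times (background 9.22% and 12.8%), with sums of 8820, 1720 and 800.0. Without centring, 3 of 5 were lower at 24 h and 5 at 72 h. The macrophage markers had sums of 33400, 18900 and 21200, and Mrc1, the mannose receptor, was 21.4-fold lower at 24 h. The part of either marker set in the Klf2 decrease was not tested. The 7 neutrophil markers had sums of 17300, 12400 and 1290, with 1 lower at 24 h (Mpo, 2.59-fold) and 7 at 72 h. The background was 9.22% lower at 24 h and 12.8% at 72 h. On the deposited scale Mpo was not called at 24 h (log2 -0.65). The part of the neutrophil markers in the Klf2 decrease, and in the 72 h values of Klf7 and Klf13, was not tested. B cell and T or NK cell markers each had 1 gene above the floor at 0 h and 0 later, and stromal markers had sums of 2070, 2250 and 6960.

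Genes with the most similar time course were sought for each called member by the distance between their 2 log2 differences against 0 h, among 7164 genes above the floor on all 3 arrays. For Klf2 these were the Fc gamma receptors Fcgr3 (distance 0.13) and Fcgr1 (0.18) and Marcksl1 (0.33). Only 12 genes lay within 0.5 log2 units of Klf2. For Klf13 they were Fam76b, Icam1 and Tpcn1, at distances of 0.03 to 0.04, for Klf7 Cd86, Ptbp2 and Rbpj, at 0.02 to 0.03, and for Klf6 Stimate, Colec12 and Dnmbp, at 0.01 to 0.05. Those 3 members lay in crowded parts of the plane, with 265, 398 and 357 genes within 0.5, so near neighbours there are easily found. The likeness rests on 3 arrays.

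**Figure D4:**
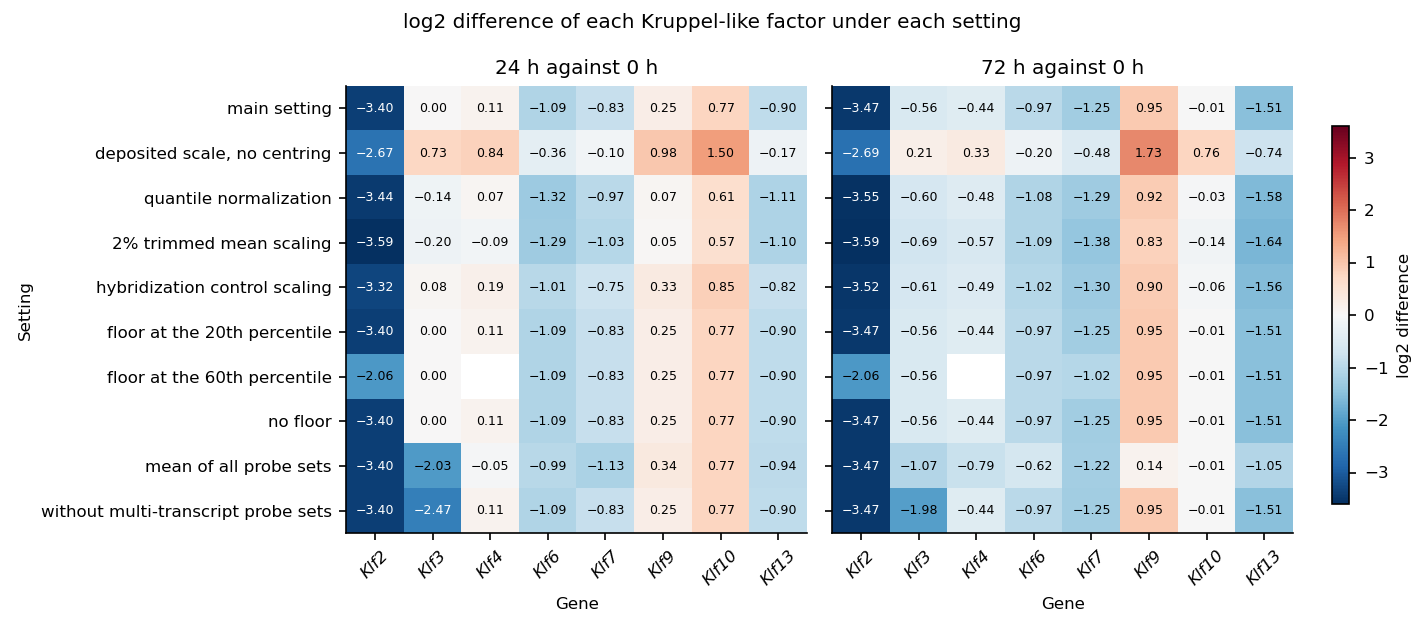
Log2 difference of each of the 8 genes at 24 h (left) and 72 h (right) against 0 h under the main setting and 9 alternatives; colour and number give the value, blue lower and red higher, and blank cells were not measured. Klf2 is at or below -2.06 in every cell, Klf3 changes with the choice of probe set (0.00 to -2.47 at 24 h), and the deposited scale lifts all 8 genes.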

How the data were processed

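Total RNA (5 µg per sample, per the labels' protocols) was made into biotinylated cRNA and hybridized to 1 Affymetrix array per time. The deposited values are linear signal intensity per probe set, made by the authors with MAS5 per the submitters' processing notes; the sources used here give neither its version nor any scaling. The number of arrays limits the precision. Of 22690 probe sets, 64 controls were left out of centring; of the other 22626, the platform annotation of 2016 gave 1 symbol to 20380, several to 691 and none to 1555. All 24 member probe sets matched a RefSeq gene by identifier.

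The floor was the 40th percentile of pooled scaled values (log2 4.89), dimmer values were raised to it, and a gene counted as measured with 1 of 2 arrays above it. A fold against the floor is written "at least". Alternatives were the deposited scale, quantile, 2% trimmed mean and hybridization control scaling (18 probe sets), floors at the 20th and 60th percentile or none, averaged probe sets, and no multi-transcript probe sets. Calling was tested on simulated data, with changes well past 2-fold placed in bright genes only. How well dim genes or changes near 2-fold are called was not tested. Named list genes are those at least 2-fold different against 0 h, up to 4 per list by size; Mapk7, Mef2a, Mef2d, Tgfbr2, Ctbp1, Klf16, Sp1, Sp3, S1pr1, Thbd, Fos, Jun and Junb were added after their values were seen. Members and lists were chosen with earlier results of these data known. Promoter sequences are from RefSeq (GRCm38.p6). Python 3.11.15, pandas 2.3.3 and numpy 2.4.6 were used.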

Additional observations from a re-analysis of the deposited data

How the results depend on the processing

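With 3 arrays and 9 alternatives, 212 member values were recomputed: 185 moved by less than the technical error, 27 by more, and no called value changed sign. Many of the 185 could not move. The 8 representing probe sets lay above the floor on every array, so the lower floor or none returned the same values. Leaving out multi-transcript probe sets could change Klf3 alone. Averaging could not change Klf2 or Klf10, with 1 probe set each. Klf2 kept its lower call at 24 h and 72 h under all 9, with log2 differences from -3.59 to -2.06. Only the scaling settings and the higher floor could change its value. With trimmed mean scaling 4 members were lower at 24 h in place of 2 (Klf7 and Klf13 joined). Klf13 was also lower at 24 h after quantile normalization (-1.11) and Klf7 with averaged probe sets (-1.13). Klf7 and Klf13 kept their 72 h calls except on the deposited scale, where they stood at -0.48 and -0.74. Klf6 lost its 24 h call on the deposited scale (-0.36) and with averaged probe sets (-0.99), and was lower at 72 h after quantile (-1.08), trimmed mean (-1.09) or hybridization control scaling (-1.02). Klf3 was lower with averaged probe sets (-2.03 at 24 h and -1.07 at 72 h, readings averaged before the floor) and without multi-transcript ones. The cause of these moves was not tested. Dim signal limits Klf4 and the RANKL values of Klf2, which lie near the floor. No paired analysis was possible because each time has 1 array.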

Other observations

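Of the 7 Klf9 probe sets, 4 did not rise clear of the floor. The first (1436952_at) read 7.62, 32.4 and 24.1 at 0, 24 and 72 h, so that it passed the floor at 24 h alone. The other 3 were under it on all arrays and give no order.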
